A study of Mus musculus with 7 samples.

Results

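Genes that mark macrophages and monocytes in the mouse were followed in sorted spleen cells during acute graft-versus-host disease (aGVHD): Aif1, which encodes IBA1, with Adgre1, Cd68, Mertk, Mrc1, Marco, Msr1, Ly6c2 and Nr4a1. The set of 9 was put together around Aif1, chosen by its large difference between the same mice, so the values of Aif1 are given as a description and without a test. Of the 9 genes, 8 had a row in the array table, among 19494 genes with a symbol and 22139 transcript clusters in all; each had 1 row. Cd68 had no row under its name in the platform annotation and is not analysed here.

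All mice were wild-type BALB/cAnN recipients that had been irradiated and had received bone marrow and T cells from C57BL6/N donors, an allogeneic hematopoietic cell transplantation (allo-HCT). ROCK1/2-inhibitor treated mice (R1 to R4, n = 4) received the ROCK1/2 inhibitor Y-27632 at 8 mg/kg in 100 µl by intraperitoneal injection for 10 days beginning on day 4, and vehicle mice (V2 to V4, n = 3) received the same volume of PBS. CD45+CD11b+ cells were sorted from the spleen on day 14, and each mouse gave 1 array. There was no group without transplantation, and both groups carried the allogeneic graft.

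IBA1 is a small calcium-binding protein that bundles actin in macrophages and microglia and is stained to find these cells in tissue. Macrophages are recognised by combinations of surface proteins, of which EMR1, the product of Adgre1, is the classical one in the mouse, while the scavenger and mannose receptors bind particles, modified lipoproteins and microbes. Monocytes are their circulating relatives. Those that leave the blood for inflamed tissue carry high Ly6C, and those that patrol vessels carry little of it and need the nuclear receptor NR4A1.

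The values are log2 intensities of a population in bulk, in which fewer cells of a type and less RNA per cell cannot be told apart. An array gives no absolute zero, so the median and the upper quartile of all rows of each array are given for orientation. The medians lay between 2.14 and 2.19 and the upper quartiles between 3.35 and 3.68. Itgam, which encodes CD11b, and Ptprc, which encodes CD45, lay above the upper quartile on all 7 arrays, and a list of 11 stromal and endothelial genes averaged 2.11 to 2.22 in inhibitor-treated mice and 1.97 to 2.21 in vehicle mice. A label that names reticular cells instead of the sorted gate was therefore not followed. The array of R1 stood apart within its group, with correlations of 0.953 to 0.964 to the other inhibitor arrays and 0.970 to the vehicle array V4.

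The bases before the start of Aif1 are shown because this gene leads the set. The RefSeq promoter table counts from a start 31 bases inside the outermost annotated end of the gene, so of its 250 upstream bases the 219 that lie outside the annotated gene are shown (GRCm38.p6, chr17:35176084-35176302, minus strand). Capitals mark the match to GAAA followed by any 2 bases and GAAA again, the core of the interferon-stimulated response element.
Aif1: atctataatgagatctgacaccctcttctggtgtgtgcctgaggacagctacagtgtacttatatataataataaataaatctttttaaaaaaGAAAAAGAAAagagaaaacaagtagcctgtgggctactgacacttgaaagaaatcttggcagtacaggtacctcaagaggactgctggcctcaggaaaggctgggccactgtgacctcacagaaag
The paired GAAA stood on the gene's own strand inside a run rich in A. On either strand it was found in 2.98% of 32851 windows of 250 bases. GAGGAA, the core bound by the myeloid factor PU.1, was found in 23.3% of them, and its match in Aif1, on the opposite strand, fell in the 31 bases inside the annotated gene that are not shown. Of the 7 genes of the set with a window (Adgre1 and Msr1 had none), GAGGAA was present in 5 (Aif1, Cd68, Ly6c2, Marco and Mrc1), the paired GAAA only in Aif1, and TATAAA, found in 12.4% of all windows, in none. These matches of letters describe the windows alone.

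Aif1 was higher in every inhibitor-treated mouse than in any vehicle mouse. Its log2 intensity was 5.24 in R1, 4.40 in R2, 4.97 in R3 and 5.51 in R4, against 1.86 in V2, 2.86 in V3 and 3.64 in V4. The lowest inhibitor-treated mouse, R2, lay 0.75 above the highest vehicle mouse, V4. The mean was 5.03 ± 0.47 in inhibitor-treated mice (SD, n = 4) and 2.79 ± 0.89 in vehicle mice (SD, n = 3), a log2 fold change of 2.24 or 4.73-fold. All 4 inhibitor arrays placed Aif1 above their upper quartile, whereas no vehicle array did, and in V2 it lay below the array median. The vehicle mice also differed widely from each other: their range of 1.79 was the 114th widest of 22139 rows in that group. Among all rows this fold change ranked 6th of the increases and 11th by absolute size. Leaving out 1 mouse at a time gave log2 fold changes between 1.78 (without V2) and 2.67 (without V4), and 2.17 without R1.

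**Figure D1:**
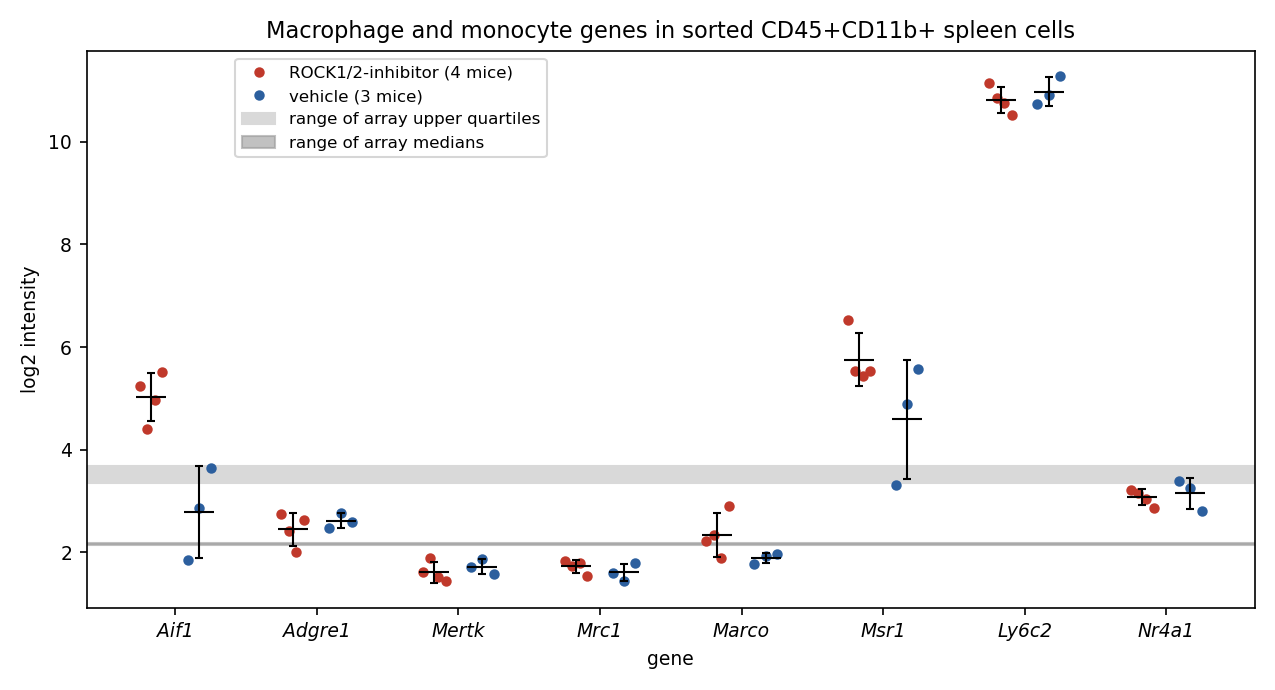
Log2 intensity of the 8 measured genes (vertical axis) in each mouse, with ROCK1/2-inhibitor treated mice (red, n = 4) left of vehicle mice (blue, n = 3); black bars are mean ± SD and the grey bands span the medians and upper quartiles of the 7 arrays. Aif1 is the gene whose groups do not overlap (4.40 to 5.51 against 1.86 to 3.64), Ly6c2 lies above 10 in all mice, and Mertk and Mrc1 lie below the median band.

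Of the 7 measured genes other than Aif1, 0 passed the threshold of limma's adjusted p under 0.05 over all 22139 transcript clusters, and 1, Msr1, had an unadjusted p under 0.05. Over all clusters 2.23% passed the adjusted threshold in either direction, 1.06% higher and 1.17% lower in inhibitor-treated mice, and 15.3% had an unadjusted p under 0.05. All inhibitor-treated mice lay above all vehicle mice for 6.22% of clusters and for 0 of these 7 genes. The median log2 fold change of the 7 was −0.072, with 3 positive and 4 negative, and 0.0049 over all clusters.

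Adgre1 encodes EMR1, the surface receptor most used to define mouse macrophages. Its log2 intensity was 2.74, 2.41, 2.02 and 2.64 in R1 to R4, against 2.48, 2.78 and 2.59 in V2 to V4. The groups overlapped, with the lowest value in the inhibitor-treated mouse R3 and the highest in the vehicle mouse V3, and the gene was above the upper quartile on 0 of 7 arrays. The log2 fold change was −0.16 (SE 0.20, 95% interval −0.61 to 0.28, adjusted p = 0.794).

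Mertk encodes a receptor tyrosine kinase with which macrophages take up apoptotic cells. It lay below the median of each of the 7 arrays, at 1.61, 1.90, 1.52 and 1.44 in R1 to R4, against 1.72, 1.88 and 1.58 in V2 to V4. The groups overlapped, and the log2 fold change was −0.11 (SE 0.16, 95% interval −0.48 to 0.26, adjusted p = 0.849). Intensities this low leave little room for a decrease to be seen.

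The endocytic and scavenger receptors of the set differed from each other. Mrc1 encodes the mannose receptor CD206, a marker of alternatively activated macrophages, and was below the median of all 7 arrays, with 1.84, 1.74, 1.80 and 1.54 in R1 to R4, against 1.60, 1.45 and 1.79 in V2 to V4. Its groups overlapped (log2 fold change 0.12, 95% interval −0.23 to 0.46, adjusted p = 0.814). Marco encodes a collagenous scavenger receptor carried by marginal zone macrophages of the spleen and had 2.22, 2.35, 1.89 and 2.90 in R1 to R4, against 1.78, 1.93 and 1.96 in V2 to V4. Of the inhibitor-treated mice R3 fell within the vehicle range and the other 3 were above it. The log2 fold change of Marco was 0.45 (SE 0.23, 95% interval −0.06 to 0.96, adjusted p = 0.401), and no array placed it above the upper quartile.

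Msr1 encodes the class A scavenger receptor CD204, which takes up modified low-density lipoprotein. It was the gene of the set with the second largest fold change, with 6.52, 5.53, 5.43 and 5.54 in R1 to R4, against 3.31, 4.89 and 5.57 in V2 to V4. The vehicle mice were spread over a range of 2.27, the 14th widest of 22139 rows in that group, and V4 was above R2, R3 and R4. The mean was 5.75 ± 0.51 in inhibitor-treated mice and 4.59 ± 1.16 in vehicle mice, a log2 fold change of 1.16 (SE 0.49, 95% interval 0.07 to 2.26) that did not pass the threshold (adjusted p = 0.293). The size depended on single mice: it was 0.52 without V2, 1.66 without V4 and 0.91 without R1. Msr1 was above the upper quartile on 6 of 7 arrays.

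The monocyte genes did not pass the test. Ly6c2 encodes the Ly6C protein that marks monocytes recruited to inflammation and was above the upper quartile on all arrays, with 11.14, 10.85, 10.76 and 10.52 in R1 to R4, against 10.74, 10.91 and 11.28 in V2 to V4. The groups overlapped (log2 fold change −0.16, SE 0.20, 95% interval −0.60 to 0.28, adjusted p = 0.80). Its close copy Ly6c1 gave −0.19 (adjusted p = 0.764), and the probes of both genes may share signal. Nr4a1, which patrolling Ly6C-low monocytes require, had 3.22, 3.17, 3.05 and 2.87 in R1 to R4, against 3.39, 3.25 and 2.80 in V2 to V4. Here the vehicle mice V2 and V4 held the highest and the lowest value, and the log2 fold change was −0.07 (SE 0.18, 95% interval −0.48 to 0.34, adjusted p = 0.915). The sign of Nr4a1 turned to 0.048 after cyclic loess scaling and to 0.050 without V2.

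Set against the label of macrophage identity, Adgre1, Mertk, Mrc1, Marco and Nr4a1 were above the upper quartile on 0 arrays, and only Ly6c2 was above it on all 7. Below the median on every array were 2 of the 8 measured genes, 3 of 20 general macrophage markers, 5 of 15 splenic macrophage markers and 31.4% of all clusters. Of the 5 genes never above the upper quartile, Nr4a1 was above the median on all 7 arrays, Adgre1 on 6, Marco on 3 and Mertk and Mrc1 on 0. Msr1 was above the upper quartile on 6 of 7 arrays, and Aif1 on all 4 inhibitor arrays and no vehicle array. Most rows of an array lie below its upper quartile by definition, so these counts cannot decide which cell types were present. The set is called here by its genes rather than by a cell type.

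Gene families related to the set were read next. Of 22 paralogs, 19 were measured and 0 passed the threshold, 2 had an unadjusted limma p under 0.05 (15.3% over all clusters), and their median log2 fold change was 0.14. Aif1l, the closest relative of Aif1, gave −0.17 (adjusted p = 0.770). Lamp2, which encodes a lysosomal membrane protein related to CD68, was 9.59, 10.02, 10.01 and 9.98 in R1 to R4, against 9.07, 8.86 and 9.48 in V2 to V4. All 4 inhibitor-treated mice were above the vehicle mice, but the log2 fold change of 0.76 did not pass (adjusted p = 0.078). Ly75, which encodes the endocytic receptor DEC-205 of the mannose receptor family, gave −0.69 (adjusted p = 0.321). The other measured paralogs of the set lay between −0.32 for Ly6e and 0.32 for Nr4a2, and Adgre5, Ly6a and Ly6g are not analysed here.

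**Figure D2:**
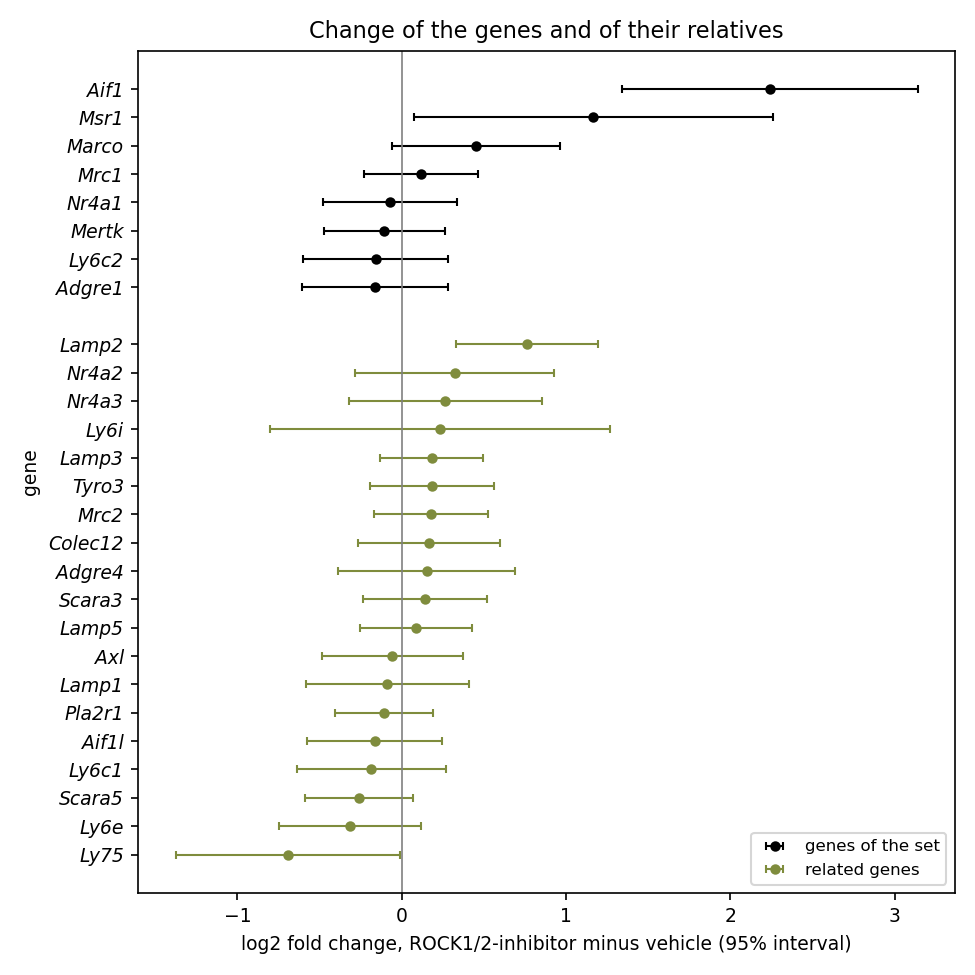
Log2 fold change (ROCK1/2-inhibitor minus vehicle, horizontal axis) with its 95% interval for the 8 measured genes of the set (black) and 19 paralogs (green). Aif1 was chosen by this difference, so its interval is no test. The interval of Msr1 spans 0.07 to 2.26, and Lamp2 (0.76) has the highest point among the paralogs.

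Mouse by mouse, the other genes of the set did not follow Aif1 equally. Likeness was measured as the root mean square difference between 2 genes' log2 intensities over the 7 mice, each centred on its own mean. The profile includes the group difference by which Aif1 was chosen, so a gene's place depends in part on its own fold change. By this measure Msr1 was nearest to Aif1 (0.678, place 132 of 19493 genes), then Marco (1.03, place 1370) and Mrc1 (1.19, place 5334). Ly6c2 (1.30), Adgre1 (1.30), Mertk (1.34) and Nr4a1 (1.36) lay beyond the median of all genes, which was 1.27. A gene that hardly varies differs from Aif1 by about the spread of Aif1 itself. Values near the median therefore do not separate a flat gene from an unlike one. In Aif1 and Msr1 alike the lowest of all mice was V2, followed by V3.

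The 5 genes with the pattern most like Aif1 were Cetn3 (0.317), Ssb (0.336), Hat1 (0.347), Hmgn5 (0.361) and Ssbp1 (0.380). Cetn3, which encodes the centrosome protein centrin 3, had 6.71, 6.496, 6.86 and 6.89 in R1 to R4, against 3.74, 5.21 and 5.31 in V2 to V4. Hat1, a histone acetyltransferase, had 7.42, 6.71, 7.36 and 7.45 in inhibitor-treated mice, against 4.99, 5.46 and 6.19 in vehicle mice. V2 was the lowest mouse in all 5. Ssb binds the ends of RNA polymerase transcripts, Hmgn5 binds nucleosomes and Ssbp1 binds single-stranded mitochondrial DNA, and their log2 fold changes were 2.08, 2.05 and 1.54. Because likeness was measured on a profile that includes the difference between the groups, no test is given.

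**Figure D3:**
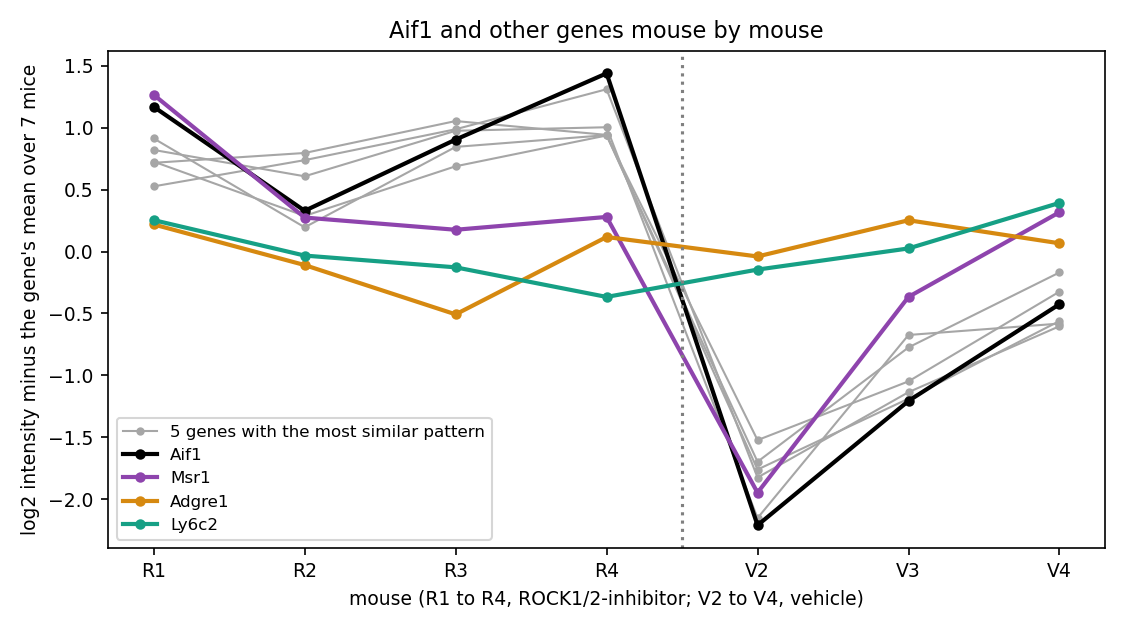
Log2 intensity minus each gene's mean over the 7 mice (vertical axis) for Aif1, Msr1, Adgre1 and Ly6c2 and for the 5 genes most similar to Aif1 (grey), with inhibitor-treated mice R1 to R4 left of the dotted line and vehicle mice V2 to V4 right of it. Aif1 and Msr1 are lowest in V2, whereas Adgre1 and Ly6c2 vary less between mice and are lowest in R3 and in R4.

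Aif1 lies in a gene-dense stretch of chromosome 17, within the major histocompatibility complex. Within 150 kb of it the gene table (GRCm38.p6) held 42 other genes, of which 27 were measured; 0 passed the threshold, 6 had an unadjusted limma p under 0.05 (15.3% over all clusters), and their median log2 fold change was −0.30. Lst1, the leukocyte-specific transcript next to Aif1, had 6.71, 6.48, 6.31 and 6.66 in R1 to R4, against 5.95, 6.37 and 6.16 in V2 to V4. R3 lay within the range of the vehicle mice and the other inhibitor-treated mice above it (log2 fold change 0.38, adjusted p = 0.328). Prrc2a, on the opposite flank, gave −0.71 (adjusted p = 0.229). The cytokine genes Ltb and Tnf gave −0.77 (adjusted p = 0.140) and −1.14 (adjusted p = 0.063), the lowest value in this stretch. Bag6, which encodes a chaperone of newly made proteins, gave −0.75 (adjusted p = 0.109), and H2-D1, a class I histocompatibility gene, −0.35 (adjusted p = 0.315).

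**Figure D4:**
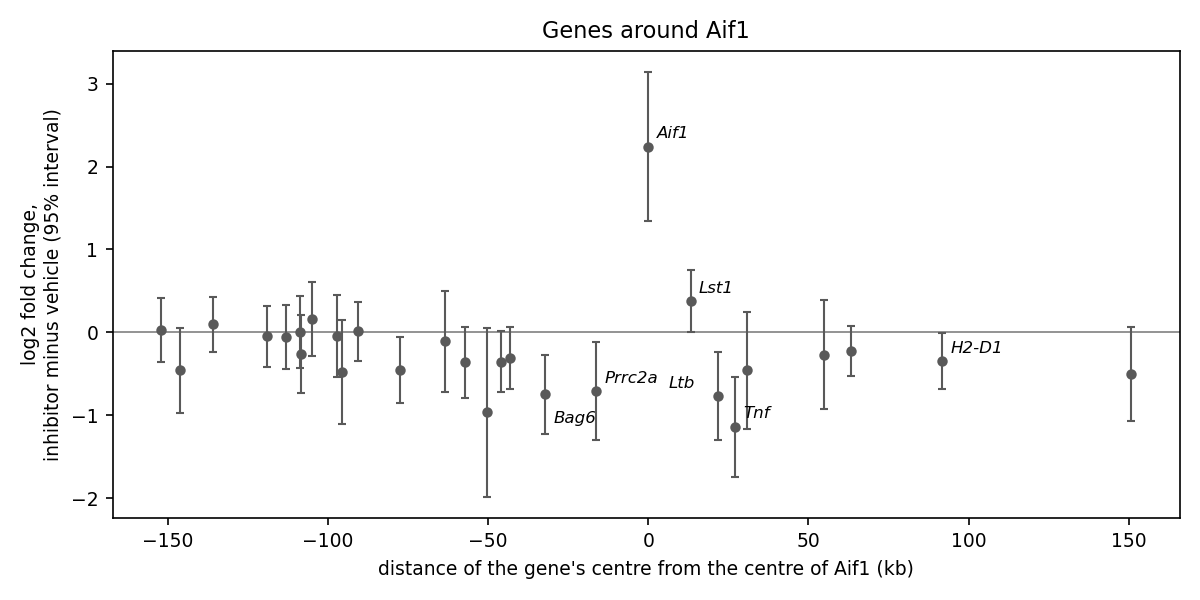
Log2 fold change (ROCK1/2-inhibitor minus vehicle, vertical axis, with 95% interval) of Aif1 and the 27 measured genes within 150 kb, by the distance in kb between gene centres. Aif1, chosen by its difference, stands at 2.24, and its interval is no test. Lst1 at 0.38 is the highest of the others and Tnf at −1.14 the lowest.

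Wider gene lists of macrophages did not move in 1 direction. Of 31 measured core macrophage genes, 1 rose and 2 fell past the threshold (2.23% over all clusters). An unadjusted limma p under 0.05 was found for 15 (15.3% over all clusters), and the median log2 fold change was −0.03. Tlr7, which encodes an endosomal receptor for single-stranded RNA, was 6.75, 7.72, 7.86 and 7.76 in R1 to R4, against 5.60, 5.33 and 5.97 in V2 to V4. It was higher in all 4 inhibitor-treated mice, by 1.89 on the log2 scale (SE 0.28, adjusted p = 0.0206). Dok3, an adaptor that restrains immune receptor signalling, fell by 1.65 (adjusted p = 0.0291) and Tcn2, which encodes the vitamin B12 carrier transcobalamin, fell by 0.93 (adjusted p = 0.0480), with all inhibitor-treated mice below all vehicle mice for both. The call of Tlr7 was lost without R2, R3, R4, V2 or V3 (highest adjusted p = 0.0851), that of Dok3 also without V4 (0.109), and that of Tcn2 without any of the 7 mice (0.156).

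No gene passed the threshold among the 20 general macrophage markers (median −0.06, 5 with an unadjusted limma p under 0.05), the 15 splenic macrophage markers (median −0.05, 2), the 17 scavenger receptors (median −0.05, 2) or the 30 genes of apoptotic cell uptake (median −0.06, 6). The same held for 15 genes of alternative activation (median −0.10, 2), 13 of classical activation (median 0.20, 4) and 17 early response genes known to be induced alongside Nr4a1 (median 0.06, 1), and over all clusters the unadjusted share was 15.3%. Csf1r was named after its values were seen. This gene, the receptor for macrophage colony-stimulating factor, averaged 5.25 ± 0.26 in inhibitor-treated mice and 4.97 ± 0.31 in vehicle mice and was above the upper quartile on all arrays (log2 fold change 0.28, adjusted p = 0.613).

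Among wider lists of monocyte genes, of which Ly6c2 and Nr4a1 are representatives, a few passed the test. Of 17 measured genes of Ly6C-high monocytes, 2 rose and 1 fell (median −0.03, 6 with an unadjusted limma p under 0.05). Of 18 genes of Ly6C-low monocytes none passed (median 0.10, 3 with an unadjusted limma p under 0.05). Over all clusters 2.23% passed and 15.3% had an unadjusted p under 0.05. Ms4a4c, a membrane protein of inflammatory monocytes, was 9.92, 9.57, 9.45 and 9.003 in R1 to R4, against 7.64, 8.30 and 8.46 in V2 to V4, a rise of 1.35 (adjusted p = 0.0374). Clec4a3, which encodes a C-type lectin receptor, was 6.89, 6.47, 6.56 and 6.83 in R1 to R4, against 4.79, 5.57 and 4.88 in V2 to V4, a rise of 1.61 (adjusted p = 0.0178). In both genes the groups did not overlap. The gene that fell, Cd177, is better known as a neutrophil surface protein and was on the neutrophil list too (fell by 1.25, adjusted p = 0.0204). The call of Ms4a4c was lost without R2, R3, R4, V2 or V3 and those of Clec4a3 and Cd177 without R2, R3, R4 or V2, with the highest adjusted p at 0.125 for Ms4a4c and 0.0743 for the other two.

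**Figure D5:**
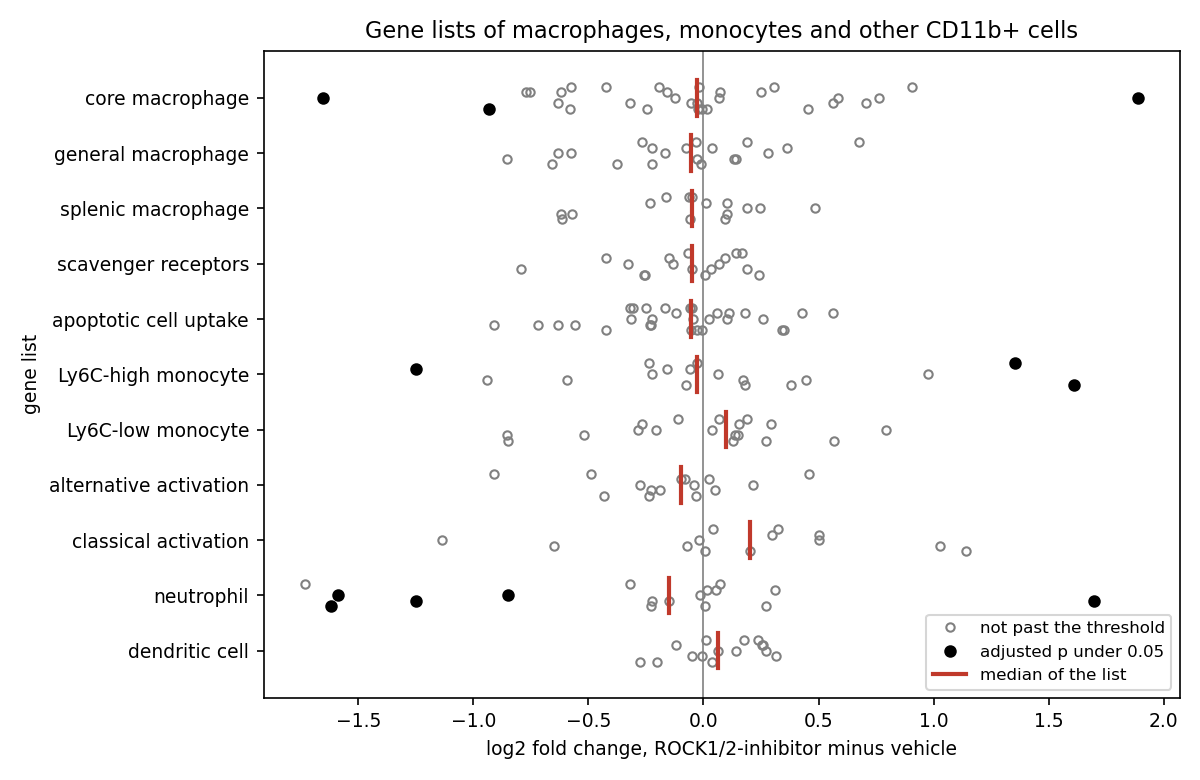
Log2 fold change (ROCK1/2-inhibitor minus vehicle, horizontal axis) of every measured gene in 11 gene lists, 1 row per list; filled points passed limma's adjusted p under 0.05, open points did not, and the red line is the list's median. The medians lie between −0.15 (neutrophil) and 0.20 (classical activation).

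CD11b+ spleen cells include neutrophils. Of 17 measured neutrophil genes, 7 had a positive and 10 a negative log2 fold change, with a median of −0.15. Their mean log2 intensity was 9.27 to 9.41 in inhibitor-treated mice and 9.52 to 9.79 in vehicle mice, without overlap. Single genes of the list ranged from −1.73 (Elane, limma's adjusted p = 0.057) to 1.70 in log2 fold change. All inhibitor-treated mice lay above all vehicle mice for 2 of the 17 and below them for 5. Over all 22139 clusters this held for 1377 and 1557. The 5 were Elane and the 4 genes that fell past the threshold. Where the groups overlapped, log2 fold changes ranged from −0.32 (Mmp9) to 0.31 (Retnlg), so the list mean does not stand for every gene. Elane, Mmp9 and Retnlg were named after their values were seen. Of the 17, 6 had an unadjusted limma p under 0.05, beside 15.3% over all clusters. Past the threshold (2.23% over all clusters) 1 rose, Stfa2, a stefin (by 1.70, adjusted p = 0.0244), and 4 fell. Those that fell were Cd177, the granule genes Mpo (fell by 1.62, adjusted p = 0.0293) and Ltf (fell by 0.85, adjusted p = 0.0372) and, named after its value was seen, Prtn3 (fell by 1.59, adjusted p = 0.0421). Each lost its call without R2, R3, R4 or V2, Stfa2 also without V3, and Mpo, Ltf and Prtn3 also without V3 or V4. The mean of the 17 Ly6C-high monocyte genes was 7.76 to 8.30 in inhibitor-treated mice and 7.66 to 8.17 in vehicle mice, and that of 20 general macrophage markers was 4.41 to 4.62 in inhibitor-treated mice and 4.56 to 4.65 in vehicle mice. Dendritic cell genes (15 measured) averaged 2.28 to 2.43 in inhibitor-treated mice and 2.27 to 2.35 in vehicle mice, and eosinophil genes (7 measured) 2.73 to 4.203 in inhibitor-treated mice and 3.79 to 4.27 in vehicle mice; by limma 0 genes of either list passed, and 0 had an unadjusted p under 0.05. Among the basophil and mast cell, T cell, B cell, NK cell, erythroid, platelet and stromal markers 0 passed, with an unadjusted limma p under 0.05 for 3 basophil and mast cell, 1 T cell, 1 NK cell and 2 erythroid genes, again beside 15.3% over all clusters. The part of these other cells in the values of Aif1 and Msr1 was not tested.

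The inhibited kinase ROCK1 had 8.01, 8.92, 9.25 and 9.21 for Rock1 in R1 to R4, against 7.59, 6.82 and 7.84 in V2 to V4. All inhibitor-treated mice lay above the vehicle mice, and the log2 fold change of 1.43 did not pass the threshold (adjusted p = 0.064). Rock2 had no row under its name and is not analysed here. Of the gate markers, Itgam gave −0.42 (adjusted p = 0.378) and Ptprc 0.30 (adjusted p = 0.75).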

How the data were processed

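Biotin-labelled RNA of CD45+CD11b+ spleen cells was hybridised to Clariom S mouse arrays, 1 per mouse. The authors deposited log2 intensities after robust multi-array averaging (RMA) with oligo; the version and the genome build are not given in the sources used here, nor is a detection call. RMA subtracts background and quantile-normalizes, so values are relative within an array. The labels and the study's methods name different RNA kits.

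Of 22203 rows, 64 identifiers that are no transcript clusters were left out, and 22139 were tested. Genes were named through the platform annotation (19572 rows with 1 symbol, 0 with several, 2631 with none), brightest row per symbol. Inhibitor-treated and vehicle mice were compared by limma 3.58.1 (R 4.3.3; lmFit, eBayes) with Benjamini-Hochberg adjustment over all transcript clusters and a threshold of 0.05, and the fit was tested on simulated data. P-values measure the spread between mice; their number limits the precision. Named were all 9 genes and their measured paralogs, up to 4 called genes with the smallest p per list, genes within 150 kb of Aif1, the 5 genes most similar to Aif1, gate markers and inhibited kinases. The genes and lists were chosen with earlier results of these data known. Alternatives were other variance models, array weights, renormalization, row filters, a replicate block and leaving out each mouse. Promoter sequences are RefSeq's (GRCm38.p6), 7 of 9 genes matched.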

Additional observations from a re-analysis of the deposited data

Results flagged for a closer look

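Of 30 genes tested for an outlying array among the 4 inhibitor-treated mice, R1 stood apart in 3. Chance flags about 1 in 20 such groups, and the vehicle group of 3 was not tested. For Msr1 the gap from R1 (6.52) to its nearest neighbour was 0.905 of the group's range. Lamp2 was lowest in R1 (9.59), with a gap of 0.909 of the range. Itgam was lowest in R1 (8.56), with a gap of 0.854 of the range.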

How the results depend on the processing

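The 8 measured genes kept the sign of their fold change except Nr4a1, which turned to 0.048 under cyclic loess and ranged from −0.244 (without V4) to 0.050 (without V2) with 1 mouse left out. Of the 7 genes other than Aif1, 0 passed the threshold in any setting. The count over all 8 genes, which follows Aif1 alone and was set by its choice, was 0 to 1 with 1 mouse left out (0 without R2, R3, R4, V2 or V3) and is no test. Transcript clusters past the threshold numbered 494, and 2 to 1035 with 1 mouse left out. With array weights they numbered 657, with the dimmest 25% of rows dropped 726 (Mertk and Mrc1 then had no value), and between 410 and 615 in the other settings that kept all mice, apart from the replicate block. With the replicate number as a block they numbered 964; the block takes R1, which has no partner, out of the contrast. Deviations of same-numbered mice correlated at 0.096 (R2 and V2), −0.13 (R3 and V3) and −0.032 (R4 and V4). Pairs with unlike numbers ranged from −0.13 (R1 and V2) to 0.18 (R1 and V3). With so few mice these values cannot decide whether same-numbered mice shared more than a number. Counts of calls in the lists did not change by over 1.5 times in 320 comparisons, were higher in 21 and lower in 16. Only the core macrophage, Ly6C-high monocyte and neutrophil lists had calls in the main fit. The other lists could lose none, and 0 calls in both settings counted as unchanged, so the 320 are no measure of stability. List medians moved by over 0.1 in 34 comparisons, and the cause was not tested. Few mice and low intensities limit what can be seen for Adgre1, Mertk, Mrc1 and Marco.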
